A study of Mus musculus with 24 samples.

Results

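The glycolysis and hypoxia response genes examined here are 37 genes that carry glucose to lactate, respond to low oxygen, or encode the oxygen-regulated alpha subunits of the hypoxia-inducible factors (HIF). They were taken by name, though with earlier results of these data known. All 37 were among the 13803 genes measured by RNA sequencing in stromal cells sorted from embryonic mouse kidneys. The cells came from kidneys with the FoxD1Cre-eGFP transgene, a Cre recombinase fused to a green fluorescent protein that marks FoxD1-expressing stroma, and the series' design text names it for the kidneys of all 8 groups. The beta-catSD group (SD, deficient in beta-catenin) was on the C57BL/6 background and the beta-catSO group (SO, with stabilised beta-catenin) was on CD1. Each was compared with wild-type cells of its own background, at the embryonic stages E12.5 and E13.5, with 3 libraries in each group. The sources used here do not give the beta-catenin alleles, or say whether replicates are separate kidneys or animals. The series speaks of 3 kidneys from each genotype, so each p below measures the spread between libraries, which may be technical. The SD and SO lines differ in strain as well as in beta-catenin, and these cannot be told apart where the lines are set against each other.

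Glycolysis splits glucose into pyruvate, and lactate dehydrogenase converts pyruvate to lactate, which leaves the cell through monocarboxylate transporters. When oxygen is scarce, the HIF alpha proteins escape the prolyl hydroxylases that mark them for breakdown, bind hypoxia response elements and raise the transcription of glucose transporters, glycolytic enzymes, collagen hydroxylases and the prolyl hydroxylases themselves. The early embryonic kidney is poorly perfused, and its stroma surrounds the nephron progenitors and the branching ureteric bud. Beta-catenin carries the canonical Wnt signal, and Axin2 is a widely used readout of it.

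Library totals ran from 6.18 M to 21.2 M reads. Axin2 served as a check of the genotype labels: it was lower in SD by 1.03 on the log2 scale at E12.5 (log2 change -1.03 ± 0.15 SE) and higher in SO by 3.47 ± 0.15, with adjusted p of 0.000553 and 4.27e-13 by limma. The 12 stromal markers were measured in every library and summed to 9234 to 14769 CPM (counts scaled to the library total). Markers of other cells were also present. Of the 12 macrophage markers, none was at 0 in all 3 libraries of a group, and their sum was 17.2 to 47.6 CPM in SD at E13.5 against 193 to 317 CPM in its wild-type. The 12 endothelial markers likewise summed to 56.1 to 88.3 CPM in SD at E13.5 against 142 to 152 CPM in wild-type. Erythroid markers, of which 8 of 13 were in the file, summed to 3260 to 3376 CPM in CD1 wild-type at E12.5 against 66.8 to 995 CPM in SO. In SO at E13.5 the macrophage sum was 466 to 1161 CPM against 313 to 423 CPM in wild-type, and 18 immediate early genes, which tissue dissociation can induce, summed to 696 to 894 CPM against 535 to 605 CPM. At E12.5 these genes summed to 683 to 711 CPM in SO against 595 to 646 CPM in wild-type. Their highest sum in any library was 955 CPM, in SD E13.5 replicate 3, where the SD group (554 to 955 CPM) overlapped its wild-type (566 to 650 CPM). Single genes of the 18 differed from these sums. In the mean of the stages, limma called Fos, Egr1 and Btg2 higher and 0 lower in SD (16.7%, beside 7.17% of all genes). In SO it called Jun higher and Btg2 and Klf4 lower (16.7%, beside 18.5% of all genes). CD1 wild-type E13.5 replicate 1 stood apart, with the highest endothelial sum (919 CPM) and the highest ureteric bud sum (353 CPM) of the 24 libraries and the lowest stromal sum. Liver markers reached 4021 CPM in C57BL/6 wild-type E12.5 replicate 3 and 866 CPM in CD1 wild-type E13.5 replicate 3. They also summed to 189 to 207 CPM in CD1 wild-type at E12.5 against 0 to 0.301 CPM in SO, where 5 of the 8 measured (Alb, Apoa2, Ttr, Fga and Fgb) were at 0. In these bulk libraries, fewer cells of a type and less RNA per cell cannot be told apart, and the part of these other cells in the results below was not tested.

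The promoters of 5 members show the sequence context of genes that moved in different directions in the same cells. They are given as the 250 bases before the RefSeq transcription start listed first for each gene on GRCm38.p6, written 5′ to 3′ on the strand of the gene. Capitals mark the core of the hypoxia response element, searched as ACGTG and GCGTG on both strands, so that the palindrome CACGTG counts on each strand. Ldha lies at chr7:46845554-46845803 on the plus strand, Slc16a3 at chr11:120948817-120949066 on the plus strand, Slc16a1 at chr3:104638414-104638663 on the plus strand, Egln3 at chr12:54203875-54204124 on the minus strand and Ddit4 at chr10:59951771-59952020 on the minus strand.
Ldha: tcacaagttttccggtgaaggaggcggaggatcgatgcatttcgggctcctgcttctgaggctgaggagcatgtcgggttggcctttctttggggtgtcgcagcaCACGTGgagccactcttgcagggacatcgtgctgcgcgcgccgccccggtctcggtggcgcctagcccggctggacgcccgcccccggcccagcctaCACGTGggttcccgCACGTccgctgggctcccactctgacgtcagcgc
Slc16a3: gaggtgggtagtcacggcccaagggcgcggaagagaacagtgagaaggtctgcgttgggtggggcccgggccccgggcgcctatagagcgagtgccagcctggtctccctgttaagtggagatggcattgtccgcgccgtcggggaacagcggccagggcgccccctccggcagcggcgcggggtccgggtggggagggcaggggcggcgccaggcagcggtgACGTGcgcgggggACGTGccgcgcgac
Slc16a1: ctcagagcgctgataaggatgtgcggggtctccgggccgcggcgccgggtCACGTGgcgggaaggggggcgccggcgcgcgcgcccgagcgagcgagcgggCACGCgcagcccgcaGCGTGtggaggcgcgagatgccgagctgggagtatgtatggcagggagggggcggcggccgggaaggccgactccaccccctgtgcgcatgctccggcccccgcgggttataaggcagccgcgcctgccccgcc
Egln3: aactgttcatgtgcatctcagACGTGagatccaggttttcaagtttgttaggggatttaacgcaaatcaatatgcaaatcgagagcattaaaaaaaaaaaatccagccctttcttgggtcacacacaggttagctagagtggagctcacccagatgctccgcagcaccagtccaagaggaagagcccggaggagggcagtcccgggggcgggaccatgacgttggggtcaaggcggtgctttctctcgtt
Ddit4: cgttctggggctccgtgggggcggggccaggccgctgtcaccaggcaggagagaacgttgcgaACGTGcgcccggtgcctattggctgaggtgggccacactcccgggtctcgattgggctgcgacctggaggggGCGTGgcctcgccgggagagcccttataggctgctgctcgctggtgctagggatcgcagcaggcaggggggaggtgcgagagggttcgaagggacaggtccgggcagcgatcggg
Ldha held 5 cores by this count, 2 of them at 47 and 48 bases before the start and 1 at 34 bases before it. Slc16a3 held 2, at 14 and 27 bases before the start, and Slc16a1 held 4. The single core of Egln3 lay 229 bases before the start, and Ddit4 held 2. RefSeq windows matched 33 of the 37 members, and 27 of the 33 (81.8%) held at least 1 core in the first window, against 56.6% of the first windows of 10739 genes in the file. The core of the TCF/LEF site through which beta-catenin acts, searched as CTTTGAT and CTTTGAA on both strands, was in 0 of the 33 windows and in 5.27% of the windows of all genes. These matches describe letters only and do not show binding.

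In wild-type stroma the members covered a wide range of levels. Per exon length, in RPKM (reads scaled by exon length in kilobases and by library total) over the 12 wild-type libraries, Pkm, the pyruvate kinase of most dividing tissues, was the highest at a median of 296 RPKM (range 259 to 342). Ldha (median 177 RPKM), Tpi1 (165 RPKM), Pgk1 (162 RPKM) and Aldoa (152 RPKM) followed, and their ranges overlapped, so the order among these 4 is within their spread. Ldhb, the other lactate dehydrogenase subunit, was at 92.0 RPKM. Of the oxygen-regulated members, Ddit4 was at 49.3 RPKM, Hif1a at 38.5 RPKM, P4ha1 at 34.0 RPKM and Egln1 at 29.7 RPKM, while Egln3 was at 5.70 RPKM and Epas1 at 3.79 RPKM. The glucose transporters were at 22.3 RPKM for Slc2a1 and 3.50 RPKM for Slc2a3. The neuronal isoforms Aldoc and Eno2 and the platelet-type phosphofructokinase Pfkp were lowest, with medians of 0.303, 0.728 and 0.278 RPKM.

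**Figure D1:**
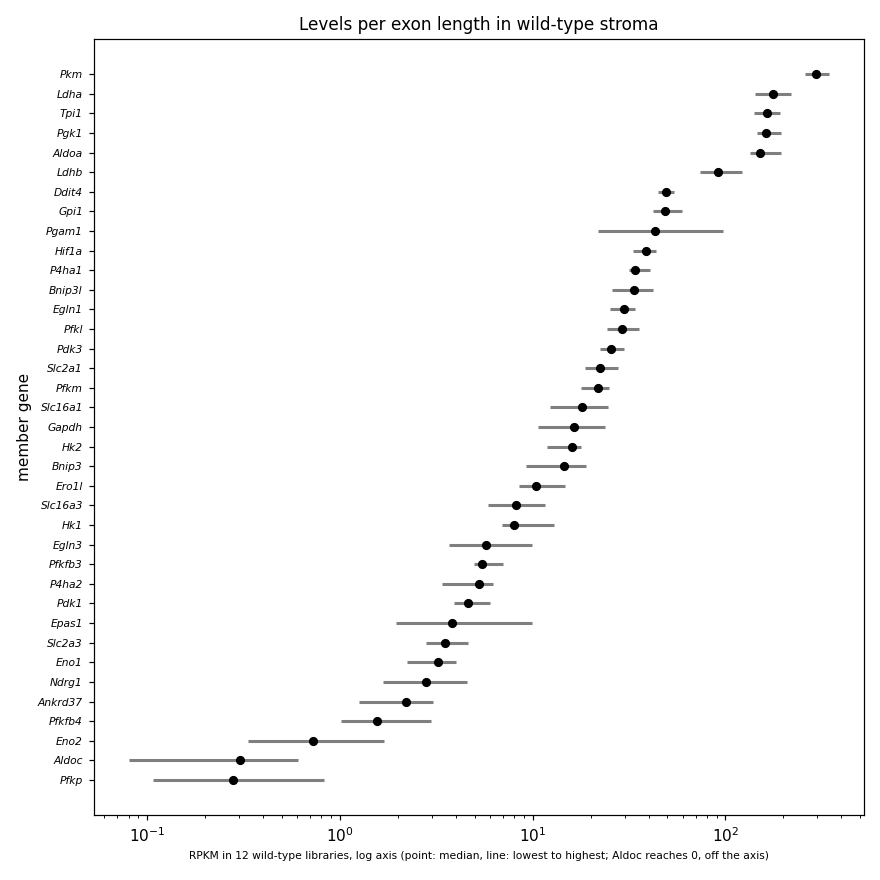
Level of each of the 37 members per exon length in the 12 wild-type libraries, in RPKM on a log axis, with the median as a point and the lowest to highest library as a line. Pkm leads at 296 RPKM, and Aldoc and Pfkp lie lowest at 0.303 and 0.278 RPKM.

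Levels of some members are uncertain because other loci carry nearly the same sequence. Gapdh, the textbook housekeeping enzyme, was only at 16.5 RPKM and shares at least 95% identity over at least 200 nucleotides with 78 other genes, 75 of them pseudogenes. Eno1, the main enolase, was at 3.21 RPKM and has 3 such loci, of which Eno1b was itself in the file at a median of 3.76 log2 CPM beside 4.01 for Eno1. Bnip3 has 5 such loci, Pgk1 and Ldha 4 each, Pkm 2, and Gpi1, Tpi1, Pgam1, Ldhb, Bnip3l, Pfkp and Ndrg1 have 1 each. The match of Pfkp is to Pitrm1, its neighbour on the opposite strand, which was at a median of 7.69 log2 CPM against 1.92 for Pfkp. The sources used here do not state the strand setting of the counting, so reads of the 14 members that overlap a gene on the opposite strand cannot be assigned with certainty. Slc16a1, Slc16a3, Egln1, Egln3, Ddit4, P4ha1 and P4ha2 have neither such a locus nor an opposite-strand overlap. Of these, only Slc16a1 overlaps genes on its own strand (Gm43581 and Gm43585), and the part of that overlap in its reads was not tested.

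Most of the 37 members varied little among replicates. The median within-group SD was 0.17 log2 CPM over the members and 0.19 over all genes. Pkm (SD 0.06) and Hif1a (0.08) were the steadiest, and Aldoc (1.53), Pgam1 (0.79) and Gapdh (0.73) varied most. Gapdh in SO at E13.5 had 91 reads in replicate 1 against 1729 and 1014 in replicates 2 and 3, or 2.90 log2 CPM against 6.35 and 6.33. Its change there was -1.15 ± 0.50 SE on the log2 scale (adjusted p = 0.136), and leaving out 1 library moved it between -1.73 and -0.0022. It passed without SO replicate 2 (0.0264) or 3 (0.0279). Aldoc had 0 to 33 reads per library and Pfkp 10 to 193.

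The question for each mutant was which genes change when beta-catenin is lost from, or held stable in, the stroma. Few members changed in SD. Calls rest on limma, with p adjusted by Benjamini-Hochberg across the 13803 genes and a threshold of 0.05. At E12.5, 1 of 37 members rose, a share of 2.70%, beside 1.72% of all genes called in either direction and 0.985% called higher. At E13.5, 2 fell (5.41%), beside 3.4% of all genes and 2.07% called lower. In the mean of the stages 1 member rose and 2 fell (8.11%), beside 7.17% of all genes, of which 3.46% were higher and 3.71% lower, so the share of members is near the background. SO changed more members than SD, in both directions, as it also changed more of all genes. Whether the shares of members in SO differ from those of all genes was not tested. At E12.5, 2 members fell (5.41%), beside 8.16% of all genes and 3% called lower. At E13.5, 4 rose and 4 fell (21.6%), beside 15.4% of all genes, of which 8.53% were higher and 6.83% lower. In the mean of the stages 4 rose and 6 fell (27.0%), beside 18.5% of all genes, of which 10.2% were higher and 8.32% lower. The members did not move as a block: their median log2 change in the SO mean was -0.02 against -0.0014 for all genes, and 15 of 37 lay above 0.

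Without CD1 wild-type E13.5 replicate 1, the library that stood apart, 12 members were called in SO at E13.5 in place of 8. Ldhb left the calls, and Aldoa, Pfkl, Pfkp and Pgk1 joined on the higher side and Pdk3 on the lower. The range over leaving out each of the 6 libraries was 8 to 12. Over all genes these fits gave 1538 to 2286 calls, beside 2120 with all libraries. The all-gene count of the fit without replicate 1 is not given, so its 12 members have no background beside them.

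**Figure D2:**
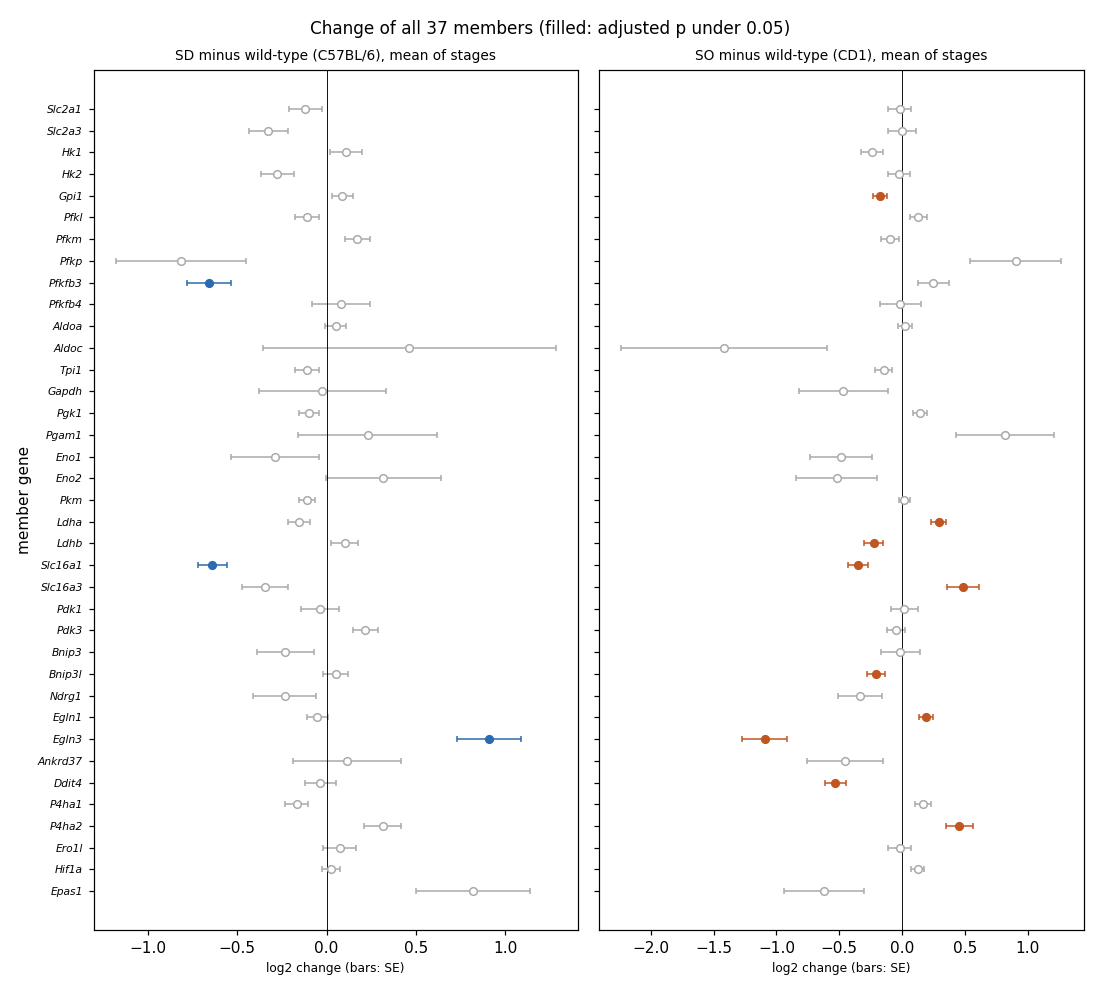
Log2 change of all 37 members against wild-type of the same strain, as the mean of E12.5 and E13.5, in SD (left) and SO (right), with SE bars from limma and filled points for adjusted p under 0.05. The 2 axes differ in range. Pfkfb3, Slc16a1 and Egln3 are filled in SD and 10 members in SO, with Egln3 at 0.91 in SD and -1.09 in SO.

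Of the 5 members of glucose entry and trapping, limma called 0 in the SD mean and 1, Gpi1, in the SO mean. The shares of all genes called were 7.17% and 18.5%. In each mean 2 of the 5 were at an unadjusted p under 0.05. Here and below, no share of all genes was taken at that unadjusted threshold, so such counts cannot be read as an excess. Slc2a1 (GLUT1), the basal glucose transporter and a classical HIF target, lay at 6.37, 6.30 and 6.51 log2 CPM in C57BL/6 wild-type and 6.22, 6.31 and 6.25 in SD at E12.5, then at 6.18, 6.16 and 6.46 and at 6.30, 6.20 and 5.98 at E13.5. In the CD1 line it lay at 6.27, 6.03 and 6.33 in wild-type and 6.13, 6.06 and 6.28 in SO at E12.5, then at 6.61, 6.28 and 6.05 and at 6.59, 6.20 and 6.19. The libraries overlapped in every mutant and wild-type pair, and the change in the mean of the stages was -0.12 ± 0.09 SE in SD and -0.02 ± 0.09 in SO (adjusted p 0.53 and 0.927). Slc2a3 (GLUT3), a high-affinity glucose transporter, stood at 4.43, 4.66 and 4.75 log2 CPM in C57BL/6 wild-type and 4.29, 4.09 and 4.27 in SD at E12.5, then at 4.68, 4.60 and 4.76 and at 4.49, 4.41 and 4.38. All SD libraries of Slc2a3 lay below the wild-type libraries of their stage. The SD mean was -0.32 ± 0.11 (adjusted p = 0.0813), and it passed with only the 12 libraries of the line (0.0403). In SO the libraries of Slc2a3 overlapped wild-type at both stages (adjusted p of the mean 0.998). For the hexokinases, which trap glucose in the cell, Hk2 in SD gave -0.27 ± 0.09 (adjusted p = 0.0686) and Hk1 in SO gave -0.24 ± 0.09 (adjusted p = 0.0653), and neither passed. Hk2 passed without SD E12.5 replicate 2 (0.0219) or SD E13.5 replicate 2 (0.0272), and Hk1 without SO E12.5 replicate 1 (0.0434), SO E13.5 replicate 3 (0.0363), CD1 wild-type E13.5 replicate 2 (0.032) or 3 (0.0181), and with voom weights (0.0465). Gpi1, the isomerase after hexokinase, fell in the SO mean by 0.18 on the log2 scale (adjusted p = 0.0383).

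Gpi1 stood at 8.12, 8.11 and 8.09 log2 CPM in CD1 wild-type at E12.5 and at 7.97, 7.94 and 8.02 in SO. At E13.5 it was at 8.57, 8.25 and 8.36 in wild-type and 8.04, 8.18 and 8.30 in SO. The groups were separate at E12.5 and overlapped at E13.5. The call was lost when any of 8 of the 12 libraries was left out, with the highest adjusted p, 0.113, without SO E13.5 replicate 1. It was kept without SO E12.5 replicate 3, SO E13.5 replicate 3 or CD1 wild-type E13.5 replicates 2 or 3. With only the 12 libraries of the line it was lost (0.0534).

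Pfkfb3 was the member of the phosphofructokinase step that changed in SD. It makes fructose 2,6-bisphosphate, the activator of phosphofructokinase, and lies at chr2:11471433-11554077 on the minus strand (GRCm38, as all gene positions below). C57BL/6 wild-type libraries held 5.72, 5.54 and 5.65 log2 CPM at E12.5 and 5.35, 5.38 and 5.56 at E13.5. SD libraries held 5.08, 5.33 and 4.60 at E12.5 and 4.78, 5.11 and 4.35 at E13.5, all below the wild-type libraries of their stage. In the mean of the stages Pfkfb3 fell 1.58-fold in SD (log2 change -0.66 ± 0.12 SE, adjusted p = 0.00138). That call was kept when each of the 12 libraries was left out in turn. At E13.5 alone it fell by 0.68 ± 0.18 (adjusted p = 0.0293), a call that did not hold when any wild-type library was left out (0.0533, 0.0779 and 0.14 for replicates 1, 2 and 3), nor without replicate 1 (0.0829) or 3 (0.194) of SD. It was also lost with voom weights (0.0817) and with only the 12 libraries of the line (0.0764). In SO the change was 0.25 ± 0.12 (adjusted p = 0.182).

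The other members of the phosphofructokinase step did not pass in either mean. The liver-type subunit Pfkl and the muscle-type subunit Pfkm gave -0.11 ± 0.07 and 0.17 ± 0.07 in SD and 0.13 ± 0.07 and -0.10 ± 0.07 in SO. Pfkp gave -0.82 ± 0.36 in SD and 0.90 ± 0.36 in SO (adjusted p 0.204 and 0.0911). Without CD1 wild-type E13.5 replicate 1, where Pfkp was at 3.47 log2 CPM against 1.37 and 0.58 in replicates 2 and 3, its SO mean was 1.32 (adjusted p = 0.00194).

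The enzymes from aldolase to pyruvate kinase, among them the abundant Pkm, Tpi1, Pgk1 and Aldoa and the scarce Aldoc and Eno2, gave 0 calls by limma in the mean of either mutant, and 0 with voom weights. Without those weights, 7.17% of all genes were called in the SD mean and 18.5% in the SO mean. Unadjusted p was under 0.05 for 1 of these 9 members in SD (Pkm) and 3 in SO (Tpi1, Pgk1 and Pgam1). Pgk1, which yields the first ATP of the pathway, stood at 8.35, 8.35 and 8.57 log2 CPM in C57BL/6 wild-type and 8.29, 8.44 and 8.46 in SD at E12.5, then at 8.63, 8.72 and 8.60 and at 8.53, 8.48 and 8.43. In the CD1 line it stood at 8.48, 8.37 and 8.39 in wild-type and 8.37, 8.58 and 8.51 in SO at E12.5, then at 8.77, 8.50 and 8.52 and at 8.85, 8.75 and 8.83. Only SD at E13.5 was clear of its wild-type, below it, and the SO mean of Pgk1 was 0.14 ± 0.06 SE (adjusted p = 0.0775). Without SO E12.5 replicate 1 or CD1 wild-type E13.5 replicate 1, it was 0.17 (0.0422) or 0.19 (0.0121). Pgam1 gave 1.02 ± 0.55 in SO at E12.5 (adjusted p = 0.299), where its SO libraries lay above wild-type without overlap. At E13.5 it gave 0.61 ± 0.55 (adjusted p = 0.512), with overlap. The SO mean of Pgam1 passed without SO E13.5 replicate 2 (1.17, adjusted p = 0.0239).

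Pkm was at 10.39, 10.34 and 10.34 log2 CPM in CD1 wild-type at E12.5 and 10.39, 10.50 and 10.44 in SO. At E13.5 its libraries held 10.74, 10.57 and 10.57 in wild-type and 10.58, 10.56 and 10.59 in SO. In C57BL/6 wild-type it was at 10.51, 10.47 and 10.42 at E12.5 and 10.55, 10.65 and 10.69 at E13.5, and in SD at 10.34, 10.46 and 10.41 and at 10.51, 10.52 and 10.41, the last group below its wild-type without overlap. The change of Pkm was -0.11 ± 0.04 SE in SD and 0.02 ± 0.04 in SO (adjusted p 0.144 and 0.852).

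Of the 6 members of the lactate step, 4 changed in SO at E13.5, beside 15.4% of all genes (8.53% higher and 6.83% lower). There Ldha and Slc16a3 rose while Ldhb and Slc16a1 fell. Ldha encodes the lactate dehydrogenase subunit of glycolytic tissues, and its SO libraries at E13.5, at 9.64, 9.76 and 9.76 log2 CPM, all exceeded the wild-type libraries at 9.49, 9.20 and 9.19. The rise was 1.34-fold (log2 change 0.42 ± 0.09 SE, adjusted p = 0.00137). At E12.5, SO stood at 9.06, 9.19 and 9.11 and wild-type at 9.10, 8.91 and 8.88, with overlap (log2 change 0.16 ± 0.09, adjusted p = 0.322). In SD the libraries held 8.92, 9.09 and 9.14 at E12.5 and 9.32, 9.08 and 9.19 at E13.5, against 9.15, 9.06 and 9.32 and against 9.33, 9.39 and 9.41 in wild-type. The SD mean of Ldha was -0.15 ± 0.06 (adjusted p = 0.15). Ldha lies at chr7:46841475-46855627 on the plus strand.

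Ldhb, the subunit of oxidative tissues, went the other way. In SO at E13.5 it stood at 6.72, 6.82 and 6.61 log2 CPM, below all 3 wild-type libraries at 7.37, 7.12 and 6.87. It fell 1.32-fold (log2 change -0.40 ± 0.11 SE, adjusted p = 0.0104), a call that was lost without SO replicate 3 (0.0543) or wild-type replicate 1 (0.0705). At E12.5, SO at 6.97, 7.10 and 7.14 overlapped wild-type at 7.14, 7.18 and 7.05. C57BL/6 wild-type held 7.19, 7.30 and 7.09 at E12.5 and 7.17, 7.58 and 7.34 at E13.5, beside 7.36, 7.41 and 7.38 and 7.41, 7.26 and 7.47 in SD, where the E12.5 libraries lay above wild-type (SD mean 0.10 ± 0.07, adjusted p = 0.501). The fall of Ldhb in the SO mean (-0.23 ± 0.07, adjusted p = 0.0364) was kept only without SO E12.5 replicate 3, SO E13.5 replicate 2 or replicate 3 of either CD1 wild-type group, and reached 0.111 otherwise. With only the 12 libraries of the line it was lost (0.0535). Within each library, Ldha exceeded Ldhb by 3.00 ± 0.13 log2 units (SD, n = 3) in SO at E13.5, and by 2.18 ± 0.13 in its wild-type. In the other 6 groups the mean of this difference ran from 1.67 in SD at E12.5 to 2.05 in SO at E12.5.

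The monocarboxylate transporters also separated. Slc16a3 (MCT4), the lactate exporter of glycolytic cells and a HIF target, was at 6.54, 6.22 and 6.20 log2 CPM in SO at E13.5, above the wild-type libraries at 5.94, 5.46 and 4.97. It rose 1.82-fold (log2 change 0.86 ± 0.18 SE, adjusted p = 0.00151). At E12.5 the SO libraries at 5.75, 5.63 and 5.43 overlapped wild-type at 5.79, 5.27 and 5.43 (log2 change 0.10 ± 0.18). SD libraries lay below their wild-type at each stage, at 5.44, 5.17 and 5.16 against 5.73, 5.65 and 5.60 and at 5.04, 4.97 and 4.58 against 5.08, 5.10 and 5.27. That change did not pass (SD mean -0.34 ± 0.13, adjusted p = 0.109). It passed when only the 12 libraries of the line were fitted (0.0343). Slc16a3 lies at chr11:120948480-120960868 on the plus strand.

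Slc16a1 (MCT1), the broadly expressed transporter that carries lactate in either direction, fell in both lines at E13.5. In C57BL/6 wild-type it stood at 6.64, 6.67 and 6.76 log2 CPM and in SD at 5.57, 5.83 and 5.85, a 1.92-fold fall (log2 change -0.94 ± 0.11 SE, adjusted p = 3.43e-05). In CD1 wild-type it stood at 6.47, 6.22 and 6.73 and in SO at 5.76, 5.83 and 5.83, a 1.59-fold fall (log2 change -0.67 ± 0.11, adjusted p = 0.000196). Neither pair overlapped, and both calls were kept when each library was left out. At E12.5 the changes were -0.34 ± 0.11 in SD and -0.04 ± 0.11 in SO (adjusted p 0.149 and 0.907), with wild-type at 6.06, 6.07 and 6.42 and SD at 5.85, 5.85 and 5.84, and with CD1 wild-type at 5.89, 5.93 and 5.77 and SO at 5.70, 6.02 and 5.76. The difference between the stages was itself tested, and gave -0.60 ± 0.16 in SD and -0.63 ± 0.16 in SO, with adjusted p of 0.827 and 0.055. The SO value passed without CD1 wild-type E13.5 replicate 1 (0.0446) or 2 (0.0158) and with the filter at a mean log2 CPM of 2 (0.0486), and the SD value passed without the liver-rich pair of libraries (0.0402). Slc16a1 lies at chr3:104638668-104658462 on the plus strand.

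The pyruvate dehydrogenase kinases, which hold pyruvate back from the mitochondrion, complete the step. Pdk1, a HIF target, gave -0.04 ± 0.11 SE in SD and 0.02 ± 0.11 in SO. Pdk3 gave 0.22 ± 0.07 in SD and -0.05 ± 0.07 in SO (adjusted p 0.0652 and 0.702), and passed in SD without SD E12.5 replicate 1 (0.0378).

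**Figure D3:**
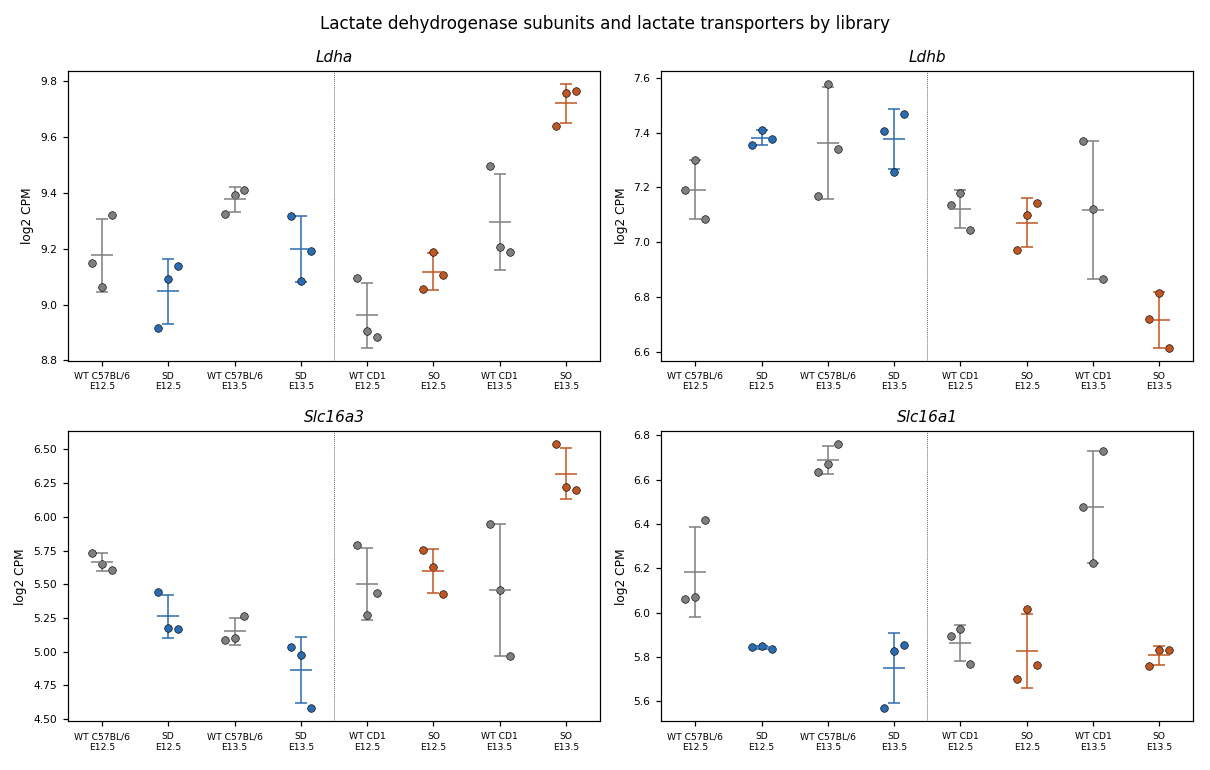
Log2 CPM of Ldha, Ldhb, Slc16a3 and Slc16a1 in each of the 24 libraries (points) with the group mean and SD (bars), C57BL/6 line left and CD1 line right of the dotted line. In SO at E13.5, Ldha (9.64 to 9.76) and Slc16a3 (6.20 to 6.54) lie above all wild-type libraries of that stage, and Ldhb (6.61 to 6.82) and Slc16a1 (5.76 to 5.83) lie below them.

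Among the hypoxia targets outside glycolysis, Egln3 moved in opposite directions in the mutants. It encodes PHD3, a HIF prolyl hydroxylase that is itself induced by HIF, and lies at chr12:54178981-54203860 on the minus strand. At E12.5 the C57BL/6 wild-type libraries held 3.30, 3.91 and 3.70 log2 CPM and the SD libraries 4.44, 4.84 and 4.97. At E13.5 they held 4.59, 4.43 and 4.11 and 5.20, 4.84 and 5.21. SD exceeded wild-type without overlap at both stages, and Egln3 rose 1.88-fold in the mean (log2 change 0.91 ± 0.18 SE, adjusted p = 0.00208). At E12.5 alone the rise was 1.12 ± 0.25 (adjusted p = 0.0223), a call lost on leaving out SD replicate 2 (0.0685), SD replicate 3 (0.125) or the lowest wild-type library, replicate 1 (0.118).

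In SO, Egln3 fell 2.13-fold in the mean (log2 change -1.09 ± 0.18 SE, adjusted p = 8.34e-05). CD1 wild-type held 3.61, 3.81 and 3.63 log2 CPM at E12.5 against 2.48, 2.55 and 2.64 in SO, well apart. At E13.5 wild-type held 4.73, 3.95 and 4.42 against 3.95, 2.61 and 3.36, where SO replicate 1 reached the lowest wild-type library. The falls at the stages were 1.13 ± 0.25 and 1.06 ± 0.25 on the log2 scale (adjusted p 0.00567 and 0.00516). With voom precision weights the call at E12.5 was lost (0.154). At E12.5 the erythroid sums were below wild-type in SO, as given above, and also in SD (19.2 to 73.6 CPM against 582 to 850 CPM). The part of erythroid cells in the Egln3 changes was not tested.

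Egln1, which encodes PHD2, the main oxygen sensor of the family, moved by far less. Its SO libraries stood at 6.70, 6.76 and 6.85 log2 CPM at E12.5 and 7.03, 6.84 and 6.90 at E13.5, and wild-type at 6.50, 6.64 and 6.65 and at 6.63, 6.74 and 6.77. The groups did not overlap, and Egln1 rose 1.14-fold in the mean (log2 change 0.19 ± 0.06 SE, adjusted p = 0.0243). The call was lost without SO E12.5 replicate 3 (0.0702), SO E13.5 replicate 1 (0.0703), CD1 wild-type E12.5 replicate 1 (0.0723) or CD1 wild-type E13.5 replicate 1 (0.0588). In SD it stood at 6.73, 6.61 and 6.84 and at 6.87, 6.67 and 6.66, with wild-type at 6.86, 6.74 and 6.74 and at 6.74, 6.68 and 6.93. Within each library Egln3 lay below Egln1 by a mean of 4.21 log2 units in SO at E12.5 (difference -4.21 ± 0.0080 SD, n = 3) and 1.65 in SD at E13.5 (-1.65 ± 0.19), the extremes of the 8 groups.

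Ddit4 (REDD1), a stress-induced inhibitor of the mTOR growth pathway, fell in SO at both stages. At E12.5 its libraries held 6.49, 6.46 and 6.36 log2 CPM in CD1 wild-type and 6.02, 6.22 and 5.74 in SO. At E13.5 they held 6.40, 6.54 and 6.29 and 6.05, 5.72 and 5.60. No SO library reached a wild-type library, and the fall in the mean was 1.45-fold (log2 change -0.53 ± 0.08 SE, adjusted p = 6.07e-05). The call at E12.5 alone (-0.45 ± 0.12, adjusted p = 0.0206) was lost without SO replicate 3 (0.157) or wild-type replicate 1 (0.079) or 2 (0.067), and with only the 12 libraries of the line (0.0525). In SD, Ddit4 was at 6.55, 6.55 and 6.62 and at 6.46, 6.29 and 6.01, against 6.56, 6.43 and 6.37 and against 6.45, 6.48 and 6.40 in wild-type (SD mean -0.03 ± 0.08, adjusted p = 0.875). Ddit4 lies at chr10:59949669-59951834 on the minus strand.

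P4ha1 and P4ha2, the catalytic subunits of the prolyl 4-hydroxylase that stabilises collagen, rose in SO at E13.5. P4ha2 stood at 5.71, 5.38 and 5.30 log2 CPM against 4.64, 5.02 and 4.41 in wild-type, and rose 1.71-fold (log2 change 0.77 ± 0.15 SE, adjusted p = 0.000715). P4ha1 stood at 7.79, 7.47 and 7.48 against 7.03, 7.39 and 7.10, and rose 1.33-fold (log2 change 0.41 ± 0.09, adjusted p = 0.00255). Neither overlapped its wild-type. The SO mean of P4ha1 (0.17 ± 0.06, adjusted p = 0.0718) passed without SO E13.5 replicate 2 (0.0494) or CD1 wild-type E13.5 replicate 2 (0.0104). At E12.5 the changes in SO were 0.14 ± 0.15 for P4ha2 and -0.07 ± 0.09 for P4ha1, with P4ha2 at 5.03, 5.04 and 5.26 against 4.74, 5.28 and 4.89. The stage difference did not pass for either (0.63 ± 0.21, adjusted p = 0.155, and 0.48 ± 0.13, adjusted p = 0.0602). In SD, P4ha2 held 5.35, 5.45 and 5.22 at E12.5 and 5.61, 5.45 and 5.54 at E13.5, with wild-type at 5.25, 5.15 and 5.21 and at 5.07, 5.21 and 4.86 (SD mean 0.31 ± 0.11, adjusted p = 0.0766). With only the 12 libraries of the line it passed (0.0233). P4ha2 lies at chr11:54100095-54131665 and P4ha1 at chr10:59323296-59373304, both on the plus strand.

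Bnip3l (NIX), a mitophagy receptor, fell 1.16-fold in the SO mean (log2 change -0.21 ± 0.07 SE, adjusted p = 0.0399). Its libraries held 7.27, 7.17 and 7.35 log2 CPM in CD1 wild-type and 6.97, 7.06 and 6.87 in SO at E12.5, without overlap. At E13.5 they held 7.01, 7.03 and 6.91 and 6.93, 6.77 and 6.88, with overlap. The call was lost when any of 8 of the 12 libraries was left out, with the highest adjusted p, 0.105, without SO E12.5 replicate 3, and was kept without SO E12.5 replicate 2, SO E13.5 replicate 1, CD1 wild-type E12.5 replicate 2 or CD1 wild-type E13.5 replicate 3. Bnip3, Ndrg1, Ankrd37 and Ero1l did not pass in either line, with changes in the means of -0.23 ± 0.16, -0.23 ± 0.18, 0.12 ± 0.30 and 0.08 ± 0.09 in SD. In SO they were -0.01 ± 0.16, -0.34 ± 0.18, -0.45 ± 0.30 and -0.02 ± 0.09.

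**Figure D4:**
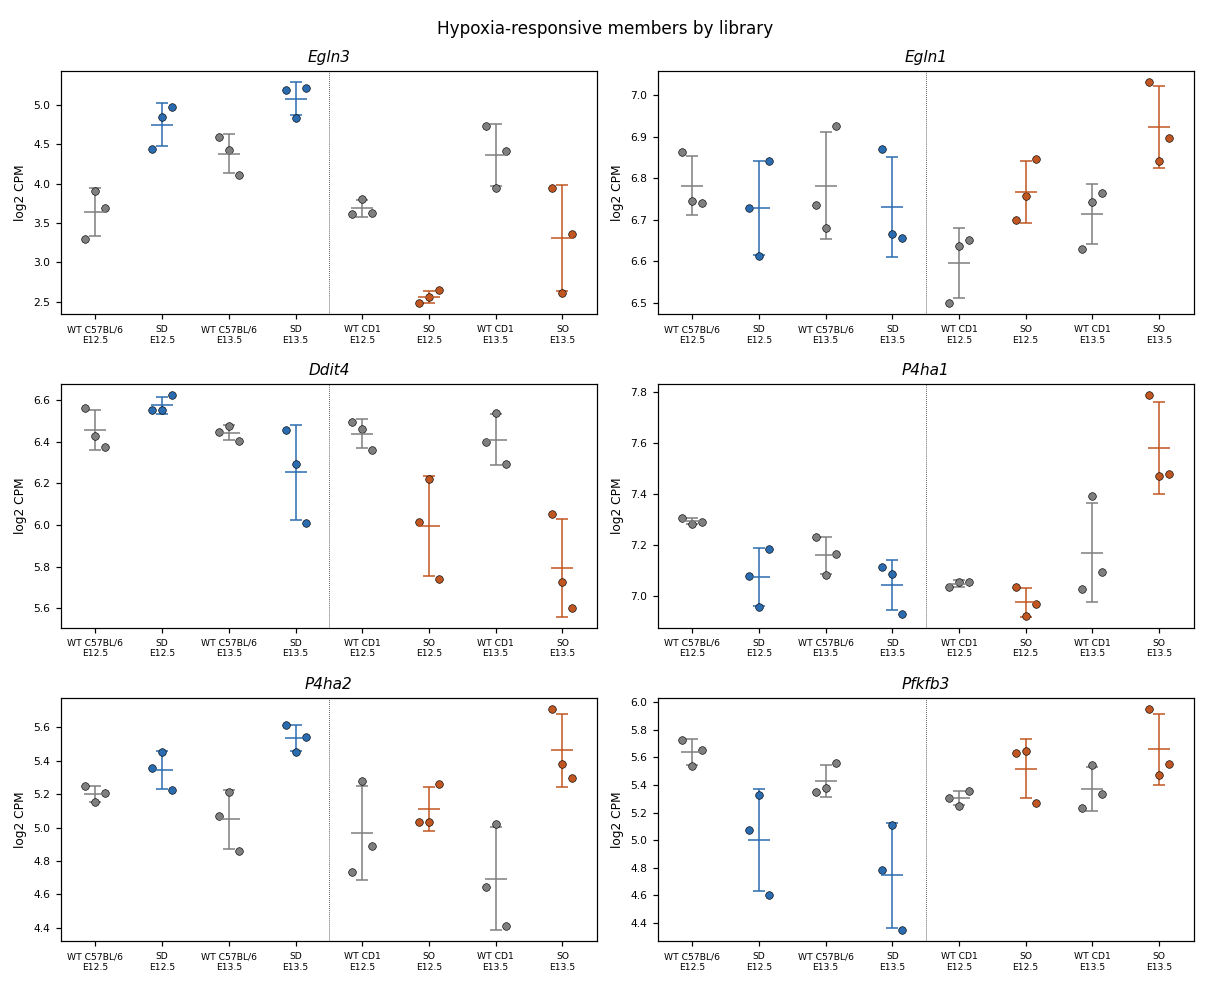
Log2 CPM of Egln3, Egln1, Ddit4, P4ha1, P4ha2 and Pfkfb3 in each of the 24 libraries (points) with the group mean and SD (bars). Egln3 lies above wild-type in SD and below it in SO at E12.5, and overlaps wild-type in SO at E13.5; Ddit4 lies below wild-type in SO at both stages, and P4ha1 and P4ha2 lie above it in SO at E13.5.

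The transcripts of the HIF alpha subunits themselves gave 0 calls by limma in either mutant, with or without voom weights, and 1 of the 2 was at an unadjusted p under 0.05 in each mean. Of all genes, 7.17% and 18.5% were called in the SD and SO means without those weights. Hif1a, the subunit present in most cells, stood at 7.77, 7.77 and 7.91 log2 CPM in CD1 wild-type at E12.5 and at 8.01, 7.99 and 8.03 in SO. These 3 SO libraries exceeded their wild-type (log2 change 0.19 ± 0.07 SE, adjusted p = 0.0997). At E13.5 wild-type at 7.61, 7.84 and 7.90 and SO at 7.94, 7.82 and 7.74 overlapped. The SO mean was 0.12 ± 0.05 (adjusted p = 0.0919), and it passed without CD1 wild-type E13.5 replicate 3 (0.15, adjusted p = 0.041). In the C57BL/6 line, Hif1a held 8.004, 7.97 and 7.89 in wild-type and 7.89, 7.91 and 7.95 in SD at E12.5, then 7.81, 7.71 and 7.66 and 7.83, 7.81 and 7.81 at E13.5.

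Epas1 (HIF2 alpha), known for its role in endothelium and in interstitial cells, varied far more between replicates, with a within-group SD of 0.64. At E12.5 its libraries held 3.45, 4.47 and 3.95 log2 CPM in C57BL/6 wild-type and 4.05, 4.13 and 5.32 in SD. At E13.5 they held 4.39, 4.50 and 4.25 and 5.23, 5.11 and 6.08, without overlap. The SD mean was 0.82 ± 0.32 SE (adjusted p = 0.134). In the CD1 line wild-type held 3.80, 5.59 and 5.26 and SO 4.05, 4.51 and 3.19 at E12.5, then 5.79, 4.43 and 4.19 and 4.86, 4.11 and 4.60 at E13.5, and the SO mean was -0.62 ± 0.32 (adjusted p = 0.195). It passed without CD1 wild-type E12.5 replicate 1 (-0.89, adjusted p = 0.043). Both C57BL/6 wild-type groups reached higher endothelial sums than their SD counterparts, 66.6 to 222 CPM against 54.0 to 102 CPM at E12.5 and, at E13.5, the ranges given above. In the CD1 wild-type libraries at E13.5, replicate 1 held both the highest Epas1 level and the highest endothelial sum. At E12.5 the CD1 wild-type endothelial sums were 125, 451 and 433 CPM for replicates 1 to 3. Replicate 1, left out above, was thus lowest in both Epas1 and the endothelial sum. In SO at E12.5 the sums were 255, 261 and 115 CPM, with replicate 3 lowest in both. The part of endothelial cells in these Epas1 changes was not tested.

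**Figure D5:**
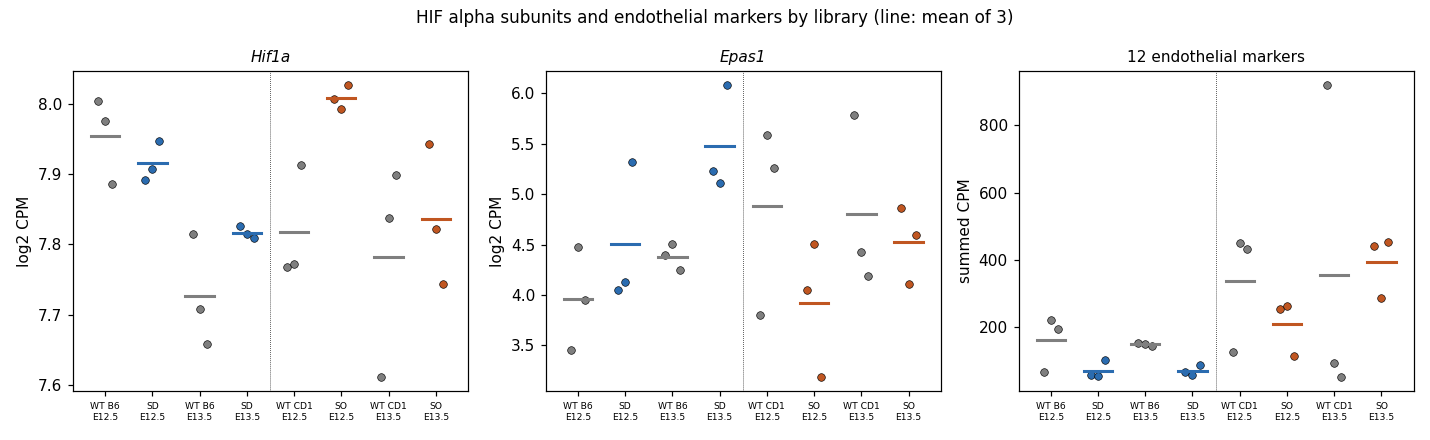
Log2 CPM of Hif1a and Epas1 and the summed CPM of 12 endothelial markers in each of the 24 libraries (points), with group means as lines. Epas1 in SD at E13.5 (5.11 to 6.08) lies above its wild-type (4.25 to 4.50) while the endothelial sum lies below it, and CD1 wild-type E13.5 replicate 1 stands apart at 919 CPM.

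The SD and SO effects share no control library, and their difference was tested directly. It was called for 12 of the 37 members (32.4%), 7 higher in SO than in SD and 5 lower, beside 17.9% of all genes, of which 9.87% were higher and 8.05% lower. Egln3 had the smallest p (SO minus SD -2.002 ± 0.25 SE, adjusted p = 3.69e-06), followed by Pfkfb3 (0.91 ± 0.18, adjusted p = 0.00066), Ldha (0.44 ± 0.09, adjusted p = 0.000811), Slc16a3 (0.83 ± 0.18, adjusted p = 0.00199), Ddit4 (-0.50 ± 0.12, adjusted p = 0.0049) and P4ha1 (0.33 ± 0.09, adjusted p = 0.011). These 6 calls were kept when each of the 24 libraries was left out. Pfkp (1.72 ± 0.51, adjusted p = 0.0222) was also kept in those fits, but it was lost with voom weights (0.0895) and without the pair of libraries highest in liver markers (1.31, 0.0693). Epas1 (-1.44 ± 0.45), Gpi1 (-0.26 ± 0.08), Ldhb (-0.33 ± 0.11), Pgk1 (0.24 ± 0.08) and Egln1 (0.24 ± 0.08) passed with adjusted p of 0.0287, 0.0289, 0.0336, 0.0346 and 0.0442. Those 5 were lost in 7, 6, 11, 12 and 15 of the 24 fits that left out a library, with adjusted p up to 0.0616 for Epas1, 0.0576 for Gpi1, 0.0679 for Ldhb, 0.069 for Pgk1 and 0.0896 for Egln1. Pgk1 and Egln1 were also lost with library totals (0.06 and 0.052), and Pgk1 without the liver-rich pair (0.115). The test of the difference did not pass for Slc16a1 (0.29 ± 0.11, adjusted p = 0.0908) or P4ha2 (0.14 ± 0.15, adjusted p = 0.577), and this does not show that they changed alike in the lines.

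Between E12.5 and E13.5, wild-type stroma of the CD1 strain gained transcripts of several glycolytic members. There 5 of 37 members rose and 0 fell beside 5.42% of all genes and 2.42% called higher, and the median member change was 0.10 against 0.0048 for all genes. The rise was not particular to the members. In the same comparison 4 of 20 tricarboxylic acid cycle genes were called higher (median 0.092) and 5 of 20 cell cycle genes (median 0.24), with 0 lower in either list. The 30 other hypoxia targets had a median of -0.030. Slc16a1 rose by 0.61 ± 0.11 SE on the log2 scale (adjusted p = 0.00322), Pkm by 0.27 ± 0.06 (adjusted p = 0.0112), Ldha by 0.33 ± 0.09 (adjusted p = 0.0274), Gpi1 by 0.29 ± 0.08 (adjusted p = 0.0406) and Tpi1 by 0.33 ± 0.09 (adjusted p = 0.0449). The calls of Slc16a1 and Pkm were kept when each library was left out. Ldha lost its call without E12.5 replicate 2 (0.101) or 3 (0.114) or E13.5 replicate 1 (0.107), Gpi1 in every such fit but the fit without E13.5 replicate 2 (up to 0.155), and Tpi1 likewise (up to 0.186). Both were also lost with median-of-ratios scaling (0.0528 and 0.0512) and without the liver-rich pair (0.0689 and 0.177), and Gpi1 with only the 12 libraries of the line (0.057). In C57BL/6 wild-type, 1 of 37 members rose and 0 fell (2.70%), beside 3.96% of all genes and 2.08% called higher. This was Slc16a1 (0.51 ± 0.11, adjusted p = 0.0182), which lost its call without E12.5 replicate 1 (0.0822) or 2 (0.0992) or E13.5 replicate 2 (0.0532) or 3 (0.0913). Gpi1 in that strain gave 0.29 ± 0.08 (adjusted p = 0.0515). It passed without E12.5 replicate 3 (0.0221) or E13.5 replicate 1 (0.0422), without the liver-rich pair (0.0244) and with the filter at a mean log2 CPM of 2 (0.0442). These stage changes use the same wild-type libraries as the mutant comparisons, so a fall of Slc16a1 in the mutants at E13.5 and its rise in wild-type are not independent of each other.

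The effect of each mutation was also compared between stages, and the wild-type strains with each other. By limma, 0 of 37 members were called for a stage difference of the SD effect, beside 0% of all genes, with 1 member at an unadjusted p under 0.05. For the SO effect it was 0 of 37, beside 1.33% of all genes (0.717% higher). At an unadjusted p under 0.05 there were 8 members, and as for the other unadjusted counts, no share of all genes was taken there. With voom weights both counts of called members were 0. Thus a call at E13.5 and not at E12.5 does not show that the effect differed between the stages. The strains gave 0 of 37, beside 4.46% of all genes (2.62% higher and 1.85% lower in C57BL/6), with 10 members at an unadjusted p under 0.05 and 1 member called with voom weights. Slc16a1 came closest, at 0.27 ± 0.08 SE higher in C57BL/6 (adjusted p = 0.061). It passed without CD1 wild-type E13.5 replicate 3 (0.0178), without the liver-rich pair (0.0282) and with voom weights (0.0466).

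Other genes of these pathways were taken from lists of known function. Of 27 measured genes among 30 other glycolysis and pyruvate genes, 1 fell and 0 rose in the SD mean, and 3 rose and 2 fell in the SO mean, with list medians of -0.012 and -0.021. These shares, 3.70% and 18.5%, lie below and at the 7.17% and 18.5% of all genes. Pdk2, another pyruvate dehydrogenase kinase, fell in SO by 0.81 ± 0.09 SE on the log2 scale (adjusted p = 4.68e-07), and Adpgk, an ADP-dependent glucokinase, rose by 0.42 ± 0.07 (adjusted p = 7.78e-05). Bpgm, which makes 2,3-bisphosphoglycerate in red cells, fell by 0.58 ± 0.15 (adjusted p = 0.00574), beside the lower erythroid sums of SO at E12.5. Pdp2, a pyruvate dehydrogenase phosphatase, rose by 0.42 ± 0.13 (adjusted p = 0.0259). In SD, Hk3, a hexokinase of myeloid cells, fell by 1.67 ± 0.43 (adjusted p = 0.0183), and 10 of the 12 macrophage markers fell in the same comparison.

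Of 30 other hypoxia targets, all measured, 1 rose and 3 fell in the SD mean, and 5 rose and 4 fell in the SO mean (13.3% and 30.0%, beside the 7.17% and 18.5% of all genes). Plod2, a collagen lysyl hydroxylase, rose in SO by 0.64 ± 0.07 SE (adjusted p = 1.47e-07) and Vegfa, the endothelial growth factor, by 0.39 ± 0.07 (adjusted p = 0.000242). Bhlhe40, a transcriptional repressor induced by hypoxia, fell in SO by 1.36 ± 0.22 (adjusted p = 9.63e-05). Zfp395, a zinc finger gene, fell in SO by 0.50 ± 0.06 and rose in SD by 0.30 ± 0.06 (adjusted p 2.47e-06 and 0.00437). In SD, Tfrc, the transferrin receptor, fell by 0.45 ± 0.08 (adjusted p = 0.00109), Hmox1, the heme oxygenase, by 0.70 ± 0.18 (adjusted p = 0.0177) and Stc1, a secreted glycoprotein, by 0.59 ± 0.16 (adjusted p = 0.0273). Mean levels of Stc1 were 3.88 log2 CPM in SD and 3.94 in wild-type at E12.5, then 3.92 and 5.04 at E13.5. Stc1 was called at E13.5 and not at E12.5, and its stage difference did not pass. Tfrc is also a gene of red cell precursors, whose markers summed to 19.2 to 73.6 CPM in SD at E12.5 against 582 to 850 CPM in wild-type. Tfrc was called at E13.5 and not at E12.5. At E13.5 these markers summed to 28.6 to 62.4 CPM in SD against 52.8 to 1198 CPM in wild-type, with overlap. The part of red cell precursors in the fall of Tfrc was not tested.

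Of 18 genes that regulate HIF, 16 were measured. In SD 0 were called by limma, beside 7.17% of all genes, with 1 at an unadjusted p under 0.05. In SO 1 rose and 2 fell (18.8%, near the 18.5% of all genes). Siah2, a ubiquitin ligase that acts on the prolyl hydroxylases, rose in SO by 0.86 ± 0.26 SE (adjusted p = 0.0209). Egln2, the third HIF prolyl hydroxylase (PHD1), fell by 0.22 ± 0.07 (adjusted p = 0.0246), and the chaperone Hsp90ab1 by 0.13 ± 0.04 (adjusted p = 0.0371). Of 7 pentose phosphate genes, 0 were called in SD by limma, beside 7.17% of all genes, with 4 at an unadjusted p under 0.05. In SO only Tkt fell, by 0.14 ± 0.05 (adjusted p = 0.038), a share of 14.3% beside 18.5%. Of 20 tricarboxylic acid cycle genes, 0 were called in SD, beside 7.17% of all genes, with 4 at an unadjusted p under 0.05. In SO 4 of the 20 fell, beside 8.32% of all genes called lower, among them Suclg2, a succinyl-CoA ligase subunit, by 0.51 ± 0.06 (adjusted p = 1.45e-06), Idh2 by 0.16 ± 0.04 (adjusted p = 0.0122), and Idh3b by 0.20 ± 0.06 (adjusted p = 0.0189), both isocitrate dehydrogenase genes.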

How the data were processed

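Kidneys were dissociated with collagenase, stromal cells were sorted by fluorescence, some of them more than once, and their RNA was sequenced as 24 libraries in 8 groups of 3, per the labels' protocols. The submitters' processing notes name HISAT2, HTSeq, limma and mm10 without versions. The deposited values are log2 CPM, which per the file's name were scaled by TMM and voom; whole reads were recovered from them (100% within 0.1 of a whole number, after removing 0.5 reads), and 0 columns stayed unmapped. The sources used here do not state filters or the strand of counting. The deposited log2 values were fitted with limma 3.58.1 in R 4.3.3, with 8 group means, 24 libraries and empirical Bayes moderation with a trend (16 residual and 6.43 prior degrees of freedom). Genes needed 3 libraries above a log2 CPM of 0, which removed 0 genes. Calls used a 2-sided Benjamini-Hochberg adjusted p under 0.05 over 13803 genes, in 12 contrasts. Replicates of a group all differed by more than sampling noise, so none were merged.

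The members, lists and contrasts were chosen with earlier results of these data known. Values in every library are given for Hif1a, Epas1, Slc2a1, Ldha, Pgk1, members called in at least 2 of the 4 comparisons within a stage, and the 8 members with the next smallest adjusted p over the means, stage changes and strains; P4ha1 was added after its values were seen. Of each other list, up to 4 called genes with the smallest p in each mean are named. The result of 1 listed gene is not reported here. Levels per length used exon lengths of GENCODE M21, near-identical loci BLAST 2.17.0. Alternatives were an offset of 2 reads, voom weights, library totals or median-of-ratios scaling, a filter at a mean log2 CPM of 2, the libraries of 1 line, a replicate block and leaving out each library. Leaving out the pair of libraries highest in liver markers was added after seeing the data. The fit was tested on simulated data. Figures used Python 3.11.15 and matplotlib 3.10.9. Intervals are standard errors over libraries.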

Additional observations from a re-analysis of the deposited data

Results flagged for a closer look

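Pfkfb4, which like Pfkfb3 sets the level of fructose 2,6-bisphosphate, lay on opposite sides of wild-type in SO at the 2 stages. At E12.5 its SO libraries held 3.34, 3.36 and 2.98 log2 CPM, all below the wild-type libraries (3.36, 3.50 and 3.85, the closest pair 3.358 and 3.360), a log2 change of -0.34 ± 0.23 SE. At E13.5 they held 3.16, 3.30 and 3.23, all above wild-type at 2.91, 2.96 and 2.88, a log2 change of 0.31 ± 0.23. The difference between the stages was 0.66 ± 0.32 and did not pass by limma (adjusted p = 0.337), nor did either change alone (adjusted p 0.429 and 0.40).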

How the results depend on the processing

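Among 44 changes of members that passed, refits under other settings kept the call 319 times and lost it 16 times, refits that left out a library kept it 449 times and lost it 109 times, and 0 changed direction. The counts of members called moved as follows. With voom weights, SD at E13.5 gave 1 in place of 2, SO at E12.5 gave 1 in place of 2, and the strains gave 1 in place of 0. With only the libraries of the line, the SD mean gave 6 in place of 3. With library totals or the filter at a mean log2 CPM of 2, the C57BL/6 stage change gave 2 in place of 1, and that filter gave 1 in place of 0 for the stage difference in SO. Median-of-ratios scaling gave 3 in place of 5 for the CD1 stage change. Without the pair of libraries highest in liver markers, the counts were 1 in place of 0 for the stage difference in SD, 4 in place of 1 for the C57BL/6 stage change, 3 in place of 5 for the CD1 stage change and 2 in place of 0 for the strains. The causes of these shifts were not tested.

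Leaving out 1 library gave 0 to 1 members in SD at E12.5, 1 to 2 at E13.5 and 3 to 4 in the mean. For SO it gave 1 to 2, 8 to 12 and 7 to 12, and 7 to 13 for the difference of the lines. The stage differences ranged from 0 to 0 in SD and 0 to 4 in SO. The stage changes ranged from 0 to 3 in C57BL/6 and 2 to 5 in CD1, and the strains from 0 to 1. Over all genes, leaving out 1 library moved the count by over 1.5 times in 8 comparisons. The ranges were 92 to 395 (237 with all libraries) in SD at E12.5, 244 to 370 (469) in SD at E13.5, 720 to 883 (1127) in SO at E12.5, 0 to 23 (0) and 61 to 532 (183) for the stage differences in SD and SO, 83 to 605 (546) and 290 to 785 (748) for the stage changes in C57BL/6 and CD1, and 233 to 1007 (616) for the strains. The counts also moved by over 1.5 times with voom weights in SD at E13.5 (193 in place of 469) and the SD mean (643 in place of 990), with the libraries of the line in the C57BL/6 stage change (262 in place of 546), and with the block in the strains (249 in place of 616). Without the liver-rich pair they were 1062 for the strains, 367 in place of 748 for the CD1 stage change, 112 in place of 183 for the stage difference in SO and 22 in place of 0 in SD.

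Replicate numbers were not treated as pairs, since in no mutant and wild-type comparison within a stage did all 3 pairs exceed a correlation of 0.1. Deviations of same-numbered libraries correlated from -0.30 to 0.36 over 36 pairs (median 0.024), 10 pairs exceeded 0.1, and 15 of 36 correlated best with their own number. The values were higher in part of the C57BL/6 line: all 3 pairs of SD at E12.5 with SD at E13.5 exceeded 0.1 (0.208, 0.178 and 0.299), and SD with wild-type at E12.5 gave 0.255, 0.083 and 0.356, each best with its own number. With a replicate block the counts were 1 and 2 in SD, 2 and 8 in SO, 4 and 10 in the means, 12 for the difference of the lines, 1 in place of 0 for the stage difference in SO and 3 in place of 1 for the C57BL/6 stage change. The block added Slc16a3 in the SD mean (adjusted p = 0.0286), in the stage difference in SO (0.0478) and, with Gpi1 (0.0406), in the C57BL/6 stage change (0.0335). Aldoc had 0 to 33 reads and Pfkp 10 to 193, and the part of depth in their spread was not tested. The difference of the lines and the strains could not be fitted with the libraries of 1 line.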
